A study of Mus musculus with 17 samples.

Results

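The mouse gene Sorbs2 holds a group of noncoding rows in a table of long noncoding RNA from neonatal heart ventricle. The rows were chosen by position: every row that overlaps the window from 46.59 to 46.92 Mb of chromosome 8, in the coordinates of the files, was taken, which gave 5 of 23940 rows. The locus had been picked because noncoding rows there fell with age, so the values by age are given as a description, without a test, and only the comparisons between ventricles are tested. Total RNA had been taken from the right ventricle (RV) or left ventricle (LV) of C57Bl/6 males on postnatal day 0 (P0, before the ductus arteriosus closes), day 3 (P3) or day 7 (P7, when nearly all heart muscle cells have matured). The groups were RV P0, RV P3, LV P0, LV P3 and LV P7 with 3 libraries each, and RV P7 with 2, and the labels call the libraries of a group biological replicates without naming the animals. All animals were untreated and the strain and sex were the same throughout, so age and ventricle are the labelled differences. The tables hold noncoding rows only, without gene names, so the ventricle label was not checked against marker genes here and the coding Sorbs2 messenger RNA was not analysed here.

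Sorbs2, also called ArgBP2, encodes an adaptor protein with SH3 domains that sits at the Z-discs and intercalated discs of heart muscle cells and ties signalling proteins to the actin cytoskeleton. Like many long muscle genes it is spliced into many forms, and some annotated forms keep an intron or end early and are not translated. Sequencing of total RNA also picks up unspliced precursor RNA, so reads over an intron can come from a precursor as well as from a stable noncoding transcript.

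A total of 4 of the 5 rows had exactly the span of a transcript in GENCODE M21 (build GRCm38), with the same spacing between them. The start positions of 11 rows in the window and the 1 Mb on each side differed from GRCm38 by the same 1085354 bases, while no other difference held for more than 1 row. The files name no build, and the submitters' processing notes name mm10. Coordinates below are therefore those of the files for the rows and those of GRCm38 for the annotation, and no position was converted. Sorbs2 itself lies at chr8:45507788-45827906 on the plus strand of GRCm38 with 36 annotated transcripts, of which 25 are protein coding and 7 are retained introns. All 4 matched transcripts lie on the same strand as Sorbs2.

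NONMMUT065446 (chr8:46713539-46734656 in the files) had the span of Sorbs2-206, a noncoding processed transcript of 3 exons and 1287 bases, at chr8:45628185-45649302 in GRCm38. Its first exons, 180 bases or 14.0% of its length, lie in exons of coding Sorbs2 transcripts, and the other 86.0%, its last exon of 1107 bases, lies in no other annotated exon. NONMMUT065447 (chr8:46717502-46719858) matched no annotated transcript. It starts 3963 bases and ends 6319 bases after the start of NONMMUT065446, within the first intron of Sorbs2-206. NONMMUT065455 (chr8:46864582-46867670) had the span of Gm45457 at chr8:45779228-45782316, a gene model of 1 exon inside a Sorbs2 intron, none of whose 3089 bases lies in another annotated exon. NONMMUT065456 (chr8:46870096-46873921) had the span of Sorbs2-236 at chr8:45784742-45788567, a retained intron of 3826 bases that contains 1 coding exon of 57 bases, 1.49% of its length. The gap between the last pair of rows is 2425 bases, and the 5 rows together cover a stretch of 160.383 kb.

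NONMMUT065452 (chr8:46744050-46831020) had the span of Sorbs2-212, a retained-intron transcript of 3 exons and 543 bases at chr8:45658696-45745666. Of these 543 bases, 323 (59.5%) lie in exons of coding transcripts and only 32 (5.89%) in no other annotated exon. The deposited values of NONMMUT065452 do not go with a length of 543 bases. A value multiplied by the length of the feature and the depth of the library should give fragments in steps of 0.5, and this held in every library above 0 for NONMMUT065446 (16 of 16), NONMMUT065455 and NONMMUT065456 (17 of 17 each) with the annotated lengths. For NONMMUT065452 it held in 0 of 17 libraries with 543 bases and in all 17 with 2454 bases. The length of 2454 bases came from a search over 100 to 10000 bases for a length that fits every library above 0. Its count of 17 therefore follows from the search and is no separate check. For NONMMUT065447, with few fragments in 7 libraries above 0, the best length was 2361 bases, longer than its span of 2357, so its length is not settled by its position either. Among Sorbs2 transcripts 2454 bases is the length of Sorbs2-235 alone, a retained intron of 1 exon at chr8:45743181-45745634, and 14 transcripts of that length exist in the whole annotation. Sorbs2-235 contains 215 of the 247 bases of the last exon of Sorbs2-212. The position and the length of this row thus point to different transcripts, and the values were used as deposited. Of the 2454 bases, 27 (1.10%) lie in coding exons and 391 (15.9%) lie in exons of Sorbs2os, an antisense gene on the minus strand. The libraries were strand-specific per the labels, but whether counting used the strand is not given in the sources used here, so RNA from Sorbs2os and from the plus strand cannot be told apart in that stretch.

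The sequences below show what these rows contain, written 5′ to 3′ on the plus strand from the GENCODE M21 transcripts. The first is the end of Sorbs2-206 at chr8:45649183-45649302, with the AATAAA motif in capitals, and the second is the start of the intron kept in Sorbs2-212 at chr8:45745447-45745546, which also lies in Sorbs2-235, with the 5′ splice site GT in capitals. The third is the start of Gm45457 at chr8:45779228-45779327, which has no part marked. The last pair flanks the coding exon in Sorbs2-236, at chr8:45785239-45785268 with the 3′ splice site AG in capitals and at chr8:45785326-45785355 with the 5′ splice site GT in capitals.
end of Sorbs2-206: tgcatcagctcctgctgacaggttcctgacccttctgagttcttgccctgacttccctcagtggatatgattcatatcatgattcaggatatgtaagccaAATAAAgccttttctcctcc
retained intron of Sorbs2-212: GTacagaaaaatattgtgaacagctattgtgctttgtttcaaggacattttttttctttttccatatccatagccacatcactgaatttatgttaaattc
start of Gm45457: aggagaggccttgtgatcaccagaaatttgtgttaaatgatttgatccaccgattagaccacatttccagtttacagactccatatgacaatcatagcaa
Sorbs2-236 before the coding exon: cctctgcttctgtggtgcatctacacccAG
Sorbs2-236 after the coding exon: GTaaagacaaattcttctctcctttccagg
The polyadenylation motifs AATAAA and ATTAAA were searched on the transcribed strand in the last 40 bases of each transcript. Of the 4 matched transcripts, 1 held a motif, Sorbs2-206, in which AATAAA starts 20 bases before the end. Of 141767 GENCODE transcripts 32.6% held one in the same window. The other 3 held neither form, which says only that these letters are not in those 40 bases.

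**Figure D1:**
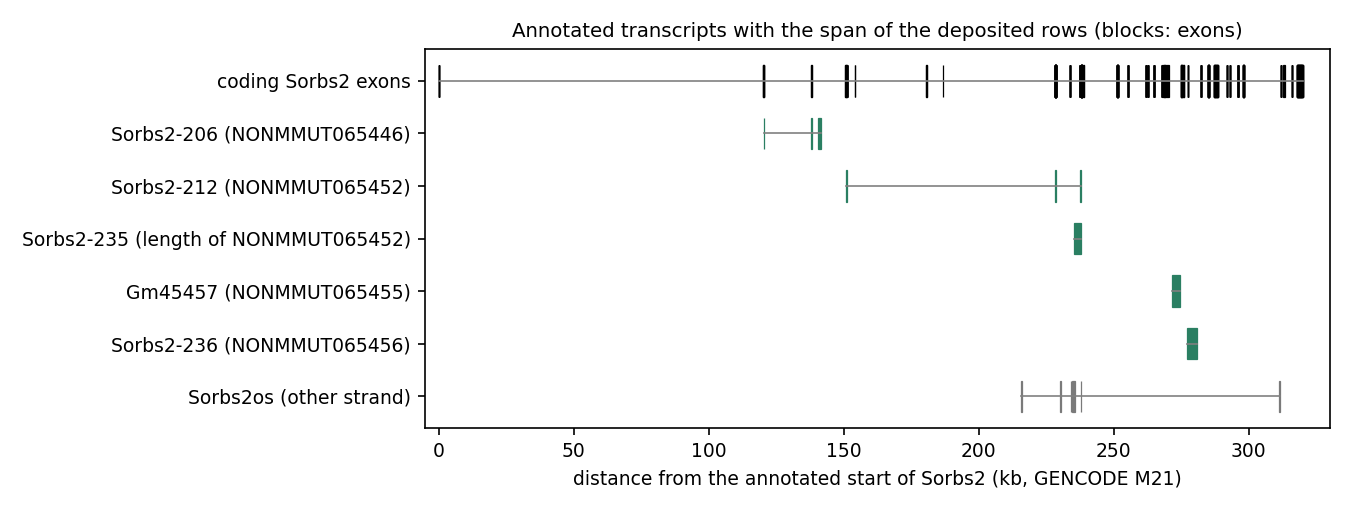
Exons (blocks) of coding Sorbs2 transcripts, of the transcripts matched to 4 rows, of Sorbs2-235 and of the antisense gene Sorbs2os, against the distance in kb from the annotated start of Sorbs2. The matched transcripts lie along the gene, Gm45457 lies between coding exons, and Sorbs2-236 covers 1 coding exon of 57 bases.

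Values are taken as FPKM, fragments per kilobase of feature and per 1000000 fragments, which the files do not state and which was inferred from the values. Implied depths were 13.8 to 20.5 M fragments per library, with the step found in each library taken as a whole fragment. At these depths the window rows rested on few fragments: 0 to 9 per library for NONMMUT065446, 6.5 to 39 for NONMMUT065452, 6 to 147 for NONMMUT065455 and 7.5 to 54 for NONMMUT065456. A total of 4 of the 5 rows reached 0.1 FPKM in at least 2 libraries and entered the fit, with 11079 rows of the whole table, and NONMMUT065447 did not. A row that reaches that level only at P0 and P3 has to be lower at P7. NONMMUT065446 is such a row, at 0 to 0.0854 FPKM over the P7 libraries, so its lower level there is partly set by the filter. The counts and medians below describe the 4 tested rows. The libraries also fell into 2 sets by the level of 1 mitochondrial row, at 132 to 247 FPKM in 6 libraries (replicate 3 of both ventricles at P0, replicates 1 and 3 of both at P3) and 7.93 to 25.8 FPKM in the other 11, which include every P7 library and replicate 2 of both ventricles at P3. What sets them apart was not tested, and values within a set are given where they differ.

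Sorbs2-206 was the least abundant of the tested forms. NONMMUT065446 had 0.283, 0.280 and 0.193 FPKM in the RV at P0, 0.0798, 0.0846 and 0.233 FPKM at P3, and 0.0645 and 0.0624 FPKM at P7. In the LV it had 0.341, 0.306 and 0.169 FPKM at P0, 0.145, 0.0205 and 0.152 FPKM at P3, and 0, 0.0234 and 0.0854 FPKM at P7. Every P7 library lay below every P0 library in both ventricles, while the P3 libraries overlapped those of P0 in the RV and those of P7 in the LV. The mean at P7 was 25.2% of that at P0 in the RV and 13.3% in the LV, and the fitted change on the log2(FPKM + 0.1) scale was -1.10 ± 0.41 (SE) in the RV and -1.46 ± 0.37 in the LV. The P7 libraries held 3 fragments in all in the RV and 2.5 in the LV, against 17 and 19 at P0.

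NONMMUT065452, the row with the position of Sorbs2-212 and the length of Sorbs2-235, had overlapping levels at P0 and P3. It had 0.468, 0.391 and 0.685 FPKM in the RV at P0, 0.627, 0.591 and 0.575 FPKM at P3, and 0.192 and 0.218 FPKM at P7. In the LV it had 0.774, 0.561 and 0.840 FPKM at P0, 0.749, 0.398 and 0.592 FPKM at P3, and 0.149, 0.221 and 0.201 FPKM at P7. In both ventricles all P7 libraries lay below all libraries of both earlier ages. The mean at P3 was 116% of that at P0 in the RV and 79.9% in the LV, whereas the mean at P7 was 39.8% and 26.3% of that at P0. The fitted change between P7 and P0 was -0.98 ± 0.33 in the RV and -1.50 ± 0.29 in the LV, and that between P7 and P3 was -1.20 ± 0.33 and -1.20 ± 0.29. Within the low set, which holds 1 LV library at P3, the LV change between P7 and P3 was -0.79. In the RV the fitted change between P3 and P0 was 0.21 over all libraries and -0.16 within the high set, with 0.601 FPKM at P3 (mean of 2 libraries) and 0.685 FPKM at P0 (1 library).

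NONMMUT065455, the row of the intronic gene model Gm45457, was the most abundant of the 4 tested rows at P0 and had the lowest share of its P0 level left at P7 in the LV and in the RV. It had 1.03, 1.51 and 1.22 FPKM in the RV at P0, 0.748, 0.470 and 0.933 FPKM at P3, and 0.206 and 0.225 FPKM at P7. In the LV it had 1.44, 1.33 and 2.58 FPKM at P0, 1.05, 0.367 and 0.877 FPKM at P3, and 0.164, 0.117 and 0.178 FPKM at P7. Within each ventricle the ages did not overlap, with P0 highest and P7 lowest. The P7 mean was 17.2% of the P0 mean in the RV and 8.57% in the LV, and the fitted change was -2.09 ± 0.39 in the RV and -2.85 ± 0.35 in the LV. By P3 the mean was 57.2% of that at P0 in the RV and 42.9% in the LV.

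NONMMUT065456, the row of the retained intron Sorbs2-236, had 0.747, 0.510 and 0.778 FPKM in the RV at P0, 0.677, 0.389 and 0.487 FPKM at P3, and 0.108 and 0.301 FPKM at P7. In the LV it had 0.528, 0.489 and 0.574 FPKM at P0, 0.613, 0.179 and 0.380 FPKM at P3, and 0.110, 0.157 and 0.129 FPKM at P7. P3 overlapped P0 in both ventricles, and all P7 libraries lay below all P0 libraries, with the RV libraries at P7 far apart from each other. The P7 mean was 30.2% of the P0 mean in the RV and 24.9% in the LV, with fitted changes of -1.41 ± 0.40 and -1.44 ± 0.36. Without RV P7 replicate 1 the RV change was -0.94, and without RV P7 replicate 2 it was -1.88.

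NONMMUT065447, the row inside the first intron of Sorbs2-206, lay between 0 and 0.0922 FPKM over the 17 libraries with at most 3 fragments in any of them. It was listed at 0 in all 5 P7 libraries, in 3 of 6 P0 libraries and in 2 of 6 P3 libraries. With the best length of 2361 bases, its fragments came to 4 over the P0 libraries, 7.5 over the P3 libraries and 0 over the P7 libraries. The row did not enter the fit, and whether it fell was not tested.

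**Figure D2:**
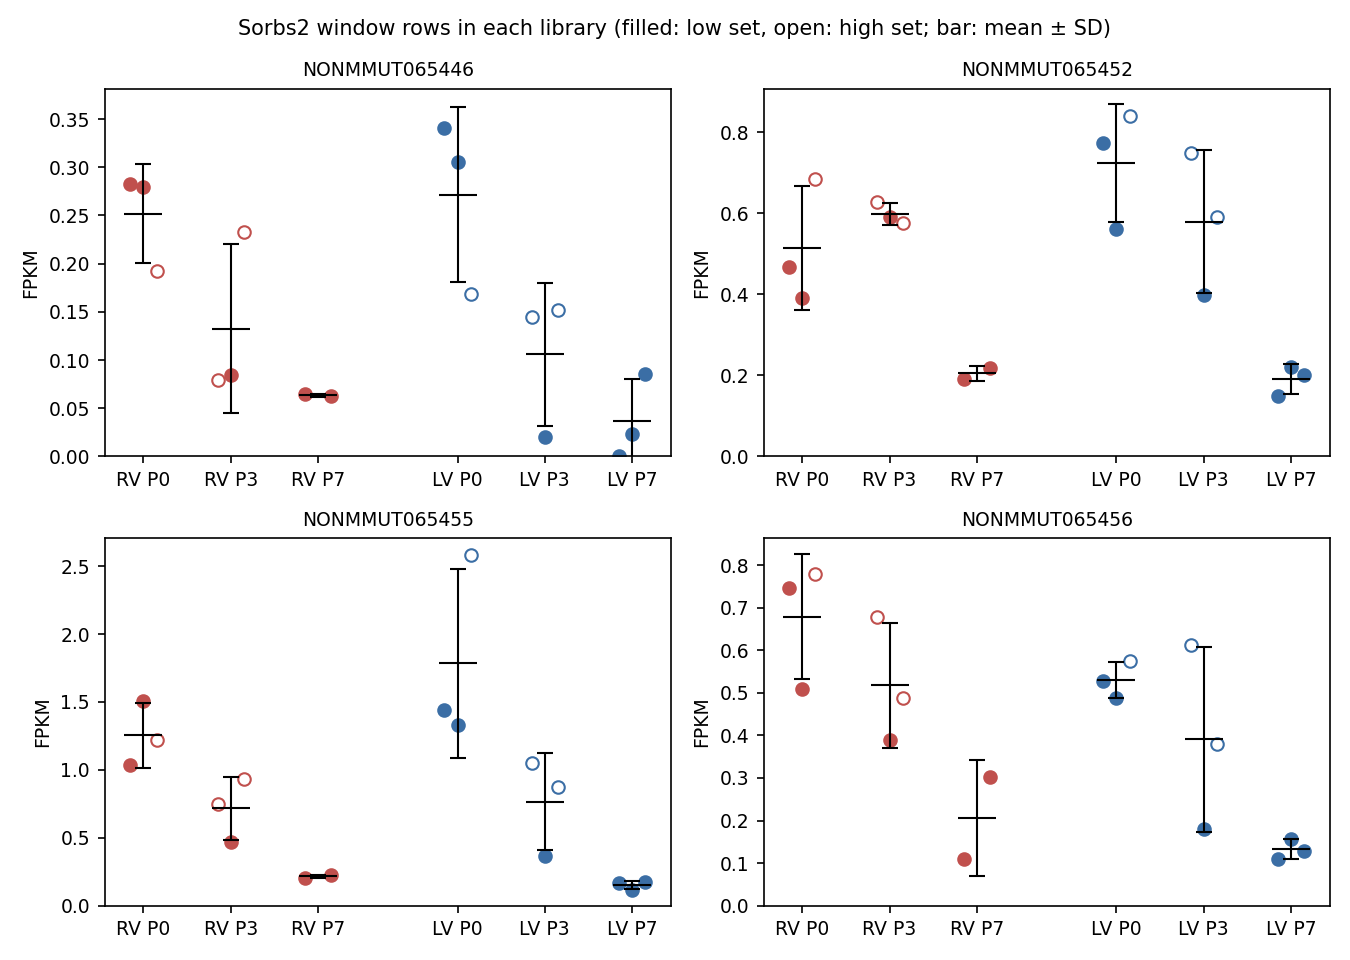
FPKM of the 4 tested rows in each library, RV left of LV and ages from P0 to P7 within each, with the mean ± SD (n = 3, but 2 for RV P7). Open points are the 6 libraries with the high mitochondrial row and filled points the other 11; in each panel every P7 point lies below every P0 point.

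The fall between P7 and P0 was thus seen in each of the 4 tested rows. For NONMMUT065446, which passed the filter only through P0 and P3 libraries, it is partly set by the filter. All 4 had every P7 library of both ventricles below every P0 library, a pattern found in 10.3% of the 11079 rows tested. Within the RV alone it was 4 of 4 rows against 27.0% of all rows, and within the LV alone 4 of 4 against 26.3%. The locus was chosen for this fall, so nothing is read from these counts. The median fitted change of the 4 rows was -1.25 in the RV and -1.48 in the LV, and that of all tested rows was -0.27 and -0.32. Most tested rows of the table thus sat lower at P7, and with each library scaled to the same median the medians of the 4 rows were -0.98 in the RV and -1.16 in the LV. In bulk tissue, fewer cells of a type and less RNA per cell cannot be told apart. Among the 11 libraries with the low mitochondrial row, which hold all P7 libraries, the median changes were -1.27 in the RV and -1.54 in the LV, as large as over all libraries.

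At P3 the rows stood at different shares of their P0 level. Every P3 library lay below every P0 library of its ventricle for NONMMUT065455 in the RV (1 of 4 rows, against 9.49% of all rows) and for NONMMUT065446 and NONMMUT065455 in the LV (2 of 4, against 11.0%), and for 0 of 4 rows over both ventricles together (2.27% of all rows). Every P7 library lay below every P3 library for 4 of 4 rows in the RV (20.5% of all rows) and for 3 of 4 in the LV (13.8%), all but NONMMUT065446. Over both ventricles this held for NONMMUT065452 and NONMMUT065455, 2 of 4 rows, against 3.54% of all rows. The median change between P3 and P0 was -0.49 in the RV and -0.68 in the LV, against -0.04 and -0.09 over all rows, and that between P7 and P3 was -1.13 and -1.09, against -0.22 in each.

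How much of the fall stood at P3 differed between the library sets, which here cannot be told apart from single libraries. In the LV, replicate 2 at P3, the low-set library of that group, was the lowest of its 3 libraries in all 4 rows. Without it the median LV change between P3 and P0 was -0.33, and it was -1.40 within the low set, where that library alone stands for P3, and -0.25 within the high set, where each ventricle has 1 library at P0. In the RV the median between P3 and P0 was -0.80 in the low set and -0.32 in the high set. For RV P3 the low set holds replicate 2 alone, the library of lowest implied depth (13.8 M fragments). For NONMMUT065446 the LV change between P7 and P3 was 0.13 in the low set and -0.57 over all libraries.

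FPKM is per length, so levels can be set side by side, with the limit that the level of NONMMUT065452 depends on which of its lengths applies and is given here as deposited. At P0, NONMMUT065455 lay at 1.03 to 2.58 FPKM over the 6 libraries, above NONMMUT065452 at 0.391 to 0.840 FPKM and NONMMUT065456 at 0.489 to 0.778 FPKM, which overlapped each other, and NONMMUT065446 lay below all of them at 0.169 to 0.341 FPKM. At P7 the 3 upper rows overlapped, at 0.117 to 0.225 FPKM for NONMMUT065455, 0.149 to 0.221 FPKM for NONMMUT065452 and 0.108 to 0.301 FPKM for NONMMUT065456, with NONMMUT065446 at 0 to 0.0854 FPKM. The neighbours NONMMUT065455 and NONMMUT065456 lie in the same part of the gene, and the ratio of the first to the second within a library had a median of 2.72 at P0 (range 1.38 to 4.50), 1.82 at P3 (1.10 to 2.31) and 1.38 at P7 (0.743 to 1.90). By ventricle the medians at P0, P3 and P7 were 1.57, 1.21 and 1.32 in the RV, and 2.73, 2.05 and 1.38 in the LV. Ranges of the ages overlap over both ventricles and in the RV, but not in the LV. The ratio was not tested because both rows belong to the chosen locus, so nothing is read from it.

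Across the 17 libraries the log2 levels of the 4 rows correlated with each other at Pearson r of 0.66 to 0.88, and at 0.18 to 0.74 once the mean of each group was removed. The highest value within groups was that of NONMMUT065452 with NONMMUT065456 and the lowest that of NONMMUT065446 with NONMMUT065452. These are descriptions, since the rows of a library share its depth and library set. The values over all libraries also include the fall with age for which the locus was chosen.

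**Figure D3:**
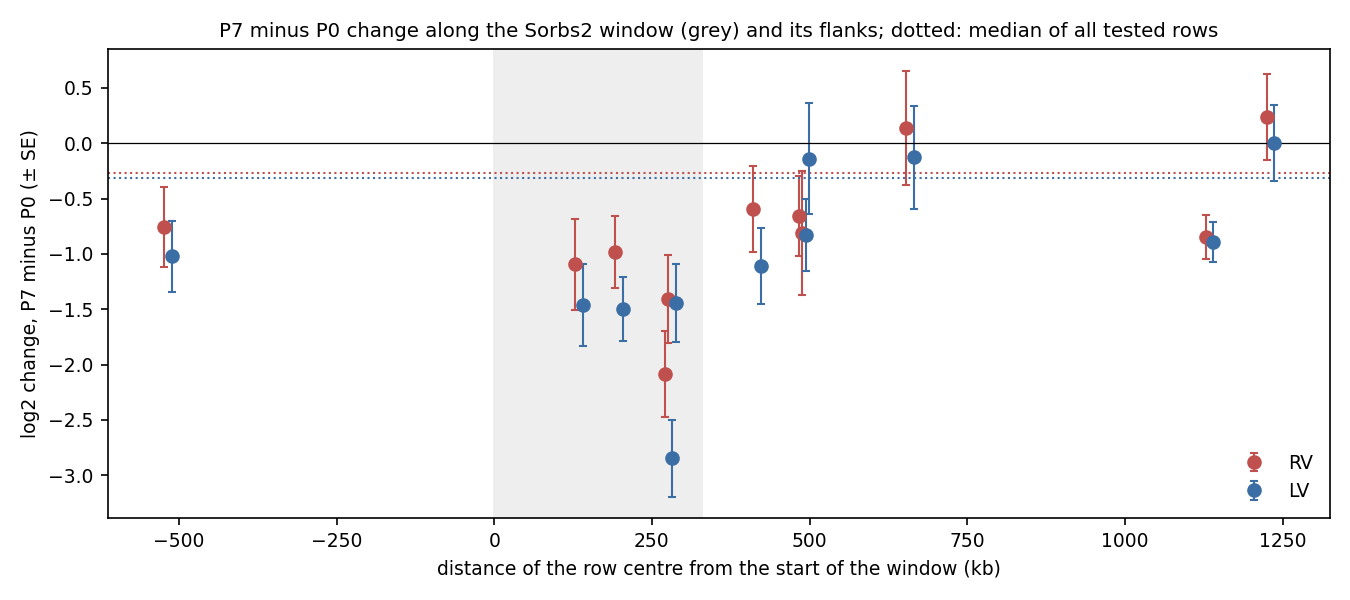
Fitted log2 change (P7 minus P0, ± SE) of each tested row against the distance of its centre from the start of the window in kb, for the window (grey) and the 1 Mb on each side; RV and LV points are drawn slightly apart and dotted lines show the medians of all tested rows, -0.27 in the RV and -0.32 in the LV. The 4 window rows lie between -0.98 and -2.85, and the flanking rows between 0.24 and -1.11.

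The rows around the window were used to see where along the chromosome the lower level at P7 ends. The 1 Mb on each side held 13 rows, of which 7 were tested, and their median change between P7 and P0 was -0.66 in the RV and -0.83 in the LV, below 0 for 5 of 7 rows in the RV and 6 of 7 in the LV, against 68.7% and 70.3% of all tested rows. All P7 libraries lay below all P0 libraries for 2 of these 7, against 10.3% of all tested rows. The nearest row on the far side, NONMMUT065461, which has the span of the gene model Gm45512, starts 86.2 kb beyond the window and had fitted changes of -0.59 ± 0.39 in the RV and -1.11 ± 0.35 in the LV. The nearest before the window, NONMMUT065428, ends 517 kb from it and had -0.76 ± 0.36 in the RV and -1.02 ± 0.32 in the LV. This row averaged only 0.131 FPKM at P0, 0.0353 FPKM at P3 and 0.0199 FPKM at P7. It passed the filter through the earlier ages, so its lower level at P7 is partly set by the filter. NONMMUT065466, with the span of a transcript of Ankrd37, had -0.81 ± 0.56 in the RV and -0.14 ± 0.50 in the LV. The most abundant flanking row, NONMMUT065492, which matched no annotated transcript, averaged 8.91 FPKM over the 17 libraries and had -0.84 ± 0.20 in the RV and -0.89 ± 0.18 in the LV. Values nearest 0 or above it were those of NONMMUT065495, 0.24 ± 0.39 in the RV and 0.0022 ± 0.35 in the LV, and of TCONS_00058478, 0.14 ± 0.52 in the RV and -0.13 ± 0.46 in the LV. Lower levels at P7 were thus not confined to the window. The changes of the window rows and of the flanking rows were not compared by a test.

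Rows with a similar pattern were sought outside the window and its flanks. Likeness was measured by the Pearson correlation of log2(FPKM + 0.1) over the 17 libraries, among 5532 tested rows of at least median level outside the window and its flanks. For NONMMUT065446 the 5 closest were NONMMUT036082, NONMMUT049634, TCONS_00028403, NONMMUT005146 and TCONS_00052412, with r of 0.87 to 0.89. The first of them, at chr2:22868343-22869673, averaged 11.4 FPKM at P0, 3.00 at P3 and 2.01 at P7. For NONMMUT065452 they were TCONS_00026073, NONMMUT008725, NONMMUT065779, NONMMUT052529 and TCONS_00063530, with r of 0.93 to 0.95. The first of these, at chr17:26965825-26972607, averaged 11.7 FPKM at P0 and 11.3 FPKM at P3, then 5.65 FPKM at P7. Like NONMMUT065452 it was near its P0 level at P3 and below it at P7. The lists have no row in common.

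Whether the locus differs between the ventricles was tested with limma (moderated linear models) across all 11079 rows, with Benjamini-Hochberg adjustment and a two-sided threshold of 0.05. No row of the locus passed it in the comparison of RV with LV at any single age or over the 3 ages, and 0 of the 4 had an unadjusted p under 0.05. Of all tested rows 0% were called at P0 and 0.00903% in each of the other comparisons, and the numbers of rows with an unadjusted p under 0.05 were 587 (P0), 651 (P3), 495 (P7) and 765 (all ages). Over the ages, NONMMUT065456 was 0.34 higher in the RV on the log2 scale (95% interval -0.11 to 0.79, limma adjusted p = 0.819). NONMMUT065446 differed by 0.15 (-0.32 to 0.61, limma adjusted p = 0.956), NONMMUT065452 by -0.10 (-0.46 to 0.27, limma adjusted p = 0.964) and NONMMUT065455 by -0.04 (-0.48 to 0.39, limma adjusted p = 0.991). The intervals of NONMMUT065446, NONMMUT065452 and NONMMUT065455 are wide enough to hold moderate differences in either direction. That of NONMMUT065456 holds a moderate excess in the RV but only a small one in the LV. The fit took the libraries as unpaired. With replicate numbers as a block, described at the end, no row of the locus was called either.

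At P0, NONMMUT065452 averaged 0.515 ± 0.152 FPKM in the RV and 0.725 ± 0.146 FPKM in the LV (SD, n = 3 each), a log2 difference of -0.44 (95% interval -1.05 to 0.17). NONMMUT065455 averaged 1.25 ± 0.24 FPKM in the RV and 1.78 ± 0.69 FPKM in the LV at P0, a difference of -0.43 (-1.16 to 0.30). At P7 the same rows averaged 0.205 ± 0.019 and 0.216 ± 0.014 FPKM in the RV (n = 2) and 0.190 ± 0.037 and 0.153 ± 0.032 FPKM in the LV (n = 3), with differences of 0.08 and 0.33. The limma adjusted p was 0.982 and 0.983 at P0 and 1 for both at P7. The replicates of the 2 ventricles overlapped for both rows at P0, and at P7 the 2 RV libraries lay above the 3 LV libraries for NONMMUT065455. How many of all rows show such a separation was not counted, so nothing is read from it.

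The size of the fall was compared between ventricles by the interaction, the P7 minus P0 change in the RV minus that in the LV. The interaction is built from the falls for which the locus was chosen, so it may not be independent of that choice. It was 0.76 ± 0.52 (SE) for NONMMUT065455, 0.51 ± 0.44 for NONMMUT065452, 0.37 ± 0.55 for NONMMUT065446 and 0.03 ± 0.53 for NONMMUT065456, and none was called (limma adjusted p = 1 for each). Of all tested rows 0% were called, with 454 at an unadjusted p under 0.05. The 95% interval for NONMMUT065455 ran from -0.33 to 1.85, so a smaller fall in the RV than in the LV was not shown and not bounded closely.

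**Figure D4:**
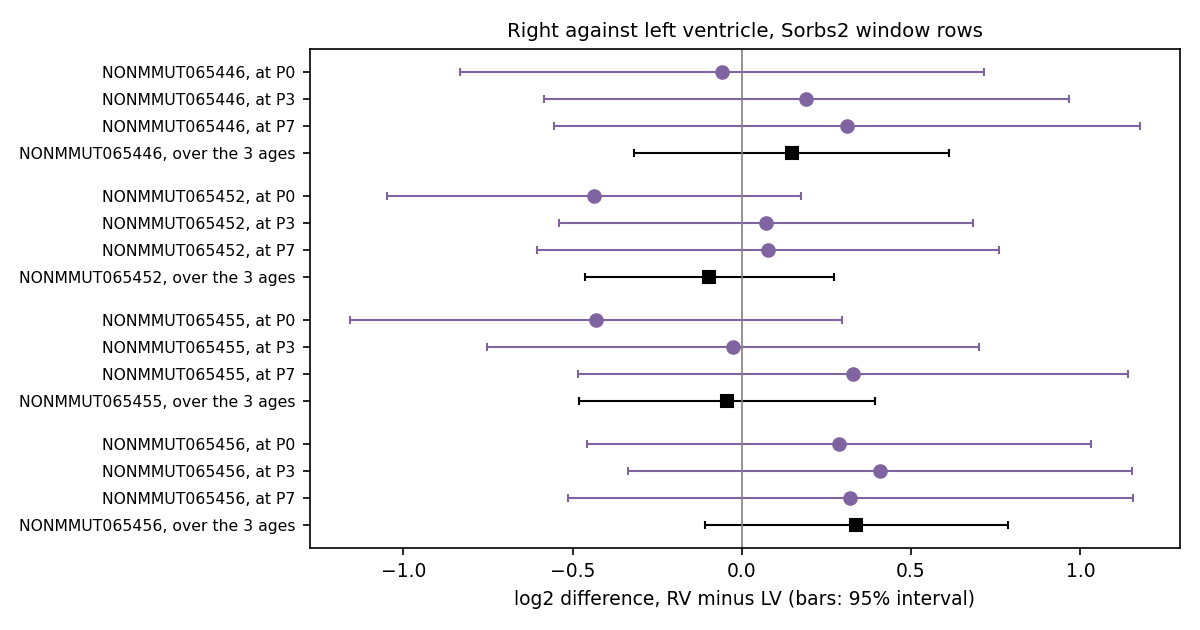
Fitted log2 difference, RV minus LV, with its 95% interval, for the 4 tested rows at P0, P3 and P7 (circles) and over the 3 ages (squares). Each of the 16 intervals includes 0.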

How the data were processed

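Strand-specific paired-end libraries of total RNA were sequenced, per the labels' protocols, and STAR 2.4.0j and mm10 are named in the submitters' processing notes. The authors deposited 1 table per library with 1 value per row, taken here as FPKM from its values. Which annotation and counter were used is not given in the sources used here. Members and lists were chosen with earlier results of these data known. Values were fitted as log2(FPKM + 0.1) with limma 3.58.1 in R 4.3.3 (1 mean per group, 17 libraries, variance trend, robust moderation) on the 11079 rows that reached 0.1 FPKM in 2 or more libraries, and the procedure was tested on simulated data. Fold changes on this scale understate those of low rows. Rows were named by these rules: the 2 listed members and window rows of at least median level (0.183 FPKM) with all values, and for each listed member the 5 rows most alike. Fragments were recovered from value, length and a step for each library (tolerance 0.01 of a 0.5-fragment step). That step was the most frequent product of value and span within a fixed range, and it was taken as a whole fragment. Depths and fragment counts rest on that choice. P-values measure the spread between the libraries of a group, and the animals behind them are not named. Alternatives covered pseudocount, filter, scaling, moderation, replicate block, single libraries and, chosen after seeing the data, library sets.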

Additional observations from a re-analysis of the deposited data

How the results depend on the processing

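Under 30 alternative settings no locus row was called between ventricles (0 of 582 values) and no change between P7 and P0 lay above 0 (0 of 230), but sizes moved. The locus was chosen for this fall, and in all 4 tested rows every P7 library lay below every P0 library. A new pseudocount or a left-out library could thus not turn the sign, and nothing is read from the 0 of 230. With a pseudocount of 1 the median changes were -0.18 (LV P3 minus P0), -0.48 (LV P7 minus P0), -0.34 (LV P7 minus P3), -0.15 (RV P3 minus P0), -0.40 (RV P7 minus P0) and -0.37 (RV P7 minus P3), and with 0.01 they were -2.51 (LV P7 minus P0), -1.53 (LV P7 minus P3), -1.82 (RV P7 minus P0) and -1.46 (RV P7 minus P3), since a pseudocount near or above the values shrinks the change. Median scaling gave -1.16 for LV P7 minus P0. With the library set as a term RV P7 minus P3 was -0.81, and in the low set it was -0.81 and LV P7 minus P3 was -0.53. LV P3 minus P0 was -1.40 in the low set and -0.25 in the high set, and -0.92 to -0.33 when single libraries were left out, lowest in size without LV P3 replicate 2.

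Ventricle differences, none of them called, changed sign in 28 of the 582 values, and the cause was not tested. In the high set NONMMUT065446 was 0.12 at P0 and -0.021 at P3, and NONMMUT065452 was -0.13 at P3. In the low set NONMMUT065452 was 0.0089 over the ages, and NONMMUT065455 was 0.29 at P3 and 0.16 over the ages. NONMMUT065455 was 0.0053 over the ages with a pseudocount of 0.01. The interaction of NONMMUT065456 was -0.044 with a pseudocount of 1 and -0.017 with median scaling. Leaving out single libraries gave -0.28 to 0.081 (P0) and -0.16 to 0.38 (P3) for NONMMUT065446, -0.14 to 0.25 (P3) and -0.030 to 0.15 (P7) for NONMMUT065452, -0.42 to 0.23 (P3) and -0.17 to 0.052 (over the ages) for NONMMUT065455, and -0.15 to 0.79 (P7) and -0.44 to 0.51 (interaction) for NONMMUT065456.

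Replicate numbers were checked as a pairing: deviations of same-numbered RV and LV libraries correlated at 0.07 to 0.24, over 0.1 in 6 of 8 pairs and not in every pair, so the numbers were not taken as a pairing. Each of the 8 LV libraries compared correlated best with its own number, a hint from the data and not from the design. With the replicate block 0 locus rows were called in any ventricle comparison, and over all rows 0 were called at P0, 11 at P3, 2 at P7, 5 over the ages and 1 for the interaction, against 0, 1, 1, 1 and 0 without it. The filter of 0.5 FPKM in 3 libraries left out NONMMUT065446, and fitting only the groups compared left it out of RV P7 minus P3 and of RV minus LV at P7, where it missed the filter. Where a setting leaves 1 library in a group, its spread is taken to equal that of the remaining groups. Few fragments at P7 limit NONMMUT065446 most.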
